A study of Homo sapiens with 12 samples.

Results

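The 8 annotated endogenous retroviral envelope genes of the count table were ERVW-1, ERVFRD-1, ERVMER34-1, ERV3-1, ERVH48-1, ERVV-1, ERVV-2 and ERVK13-1. They were taken by name from a table of 26641 genes, and no other gene of the table has a name beginning with ERV or HERV. The question was whether other retroviral gene loci follow LTR5HS when activators or repressors are brought to it. The annotation lists 7 of them as protein coding, while ERVK13-1 is annotated as a long non-coding RNA, so its label as an envelope gene was not borne out by the gene model.

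RNA with a poly(A) tail was sequenced from NCCIT cells, an established human embryonal carcinoma line. All 6 transgenic lines carried a doxycycline-inducible S. pyogenes dCas9 fusion in a PiggyBac transposon, and all were treated with doxycycline for 4 days, controls included. The fusion was dCas9-VPR, an activator (CRISPRa), or dCas9-KRAB, a repressor (CRISPRi). Each fusion was combined with 1 of 3 CARGO arrays, which express 12 guides from a single construct: LTR5HS Sp, with guides to LTR5HS on the scaffold that S. pyogenes dCas9 binds; LTR5HS Sa, with the S. aureus scaffold; or nontarget Sp. Each array is a single drug-selected line, and the 3 lines of a fusion came from the same parental line, so line and array cannot be told apart. The 2 libraries of a line are independent biological replicates per the extraction protocol in the labels. LTR5HS Sp was the recruitment arm (2 libraries per fusion), and the other arrays were pooled as control (4 libraries per fusion).

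Library totals ranged from 13601701 to 69797411 counts, and the deepest library was replicate 2 of dCas9-KRAB nontarget Sp, ahead of the next at 24840708. A floor of 3 counts corresponded to 0.0455 to 0.233 CPM (counts scaled by the TMM-normalized size of the library), which covers counting error only. As a check of the arms, CACNA2D2, EPHA7, ALPPL2, NFKB2, SERPINB9, GDPD1 and PCAT14 all rose with CRISPRa and all fell with CRISPRi. The study picked 6 of these 7 from these libraries, and PCAT14 was added with results of these data known. None of the 7 is independent evidence. The embryonal carcinoma markers stood apart by fusion: the 12 markers summed to between 1204 and 1823 CPM in the dCas9-VPR control libraries and to between 5460 and 6770 CPM in the dCas9-KRAB control libraries. NANOG, a defining pluripotency factor, was at 2.39 ± 1.85 CPM (SD, n = 4) in the former and 150 ± 32.5 CPM (n = 4) in the latter. The fusion and the line that carries it cannot be told apart.

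A retroviral envelope protein sits on the surface of the virus, binds a receptor on the target cell and fuses the membranes. Several envelope genes of ancient retroviruses have kept an intact reading frame in the human genome and are best known from the placenta, where syncytin-1 (ERVW-1) and syncytin-2 (ERVFRD-1) fuse trophoblast cells into the syncytiotrophoblast. Suppressyn (ERVH48-1) binds the receptor of syncytin-1 and limits fusion, ERVMER34-1 encodes an envelope protein that is shed from cells, and ERVV-1 and ERVV-2 are a neighbouring pair of placental envelope genes. LTR5HS is the long terminal repeat of the youngest HERVK proviruses. ERVK13-1 is by name also a group K locus, while the other members belong to other retroviral groups.

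To place the members relative to the array, the 12 guides of 16 bases were searched in hg38 with the NGG motif that S. pyogenes dCas9 needs. Exact matches numbered 2938, and clusters of at least 2 sites numbered 646. ERVH48-1 (chr21:42916803-42925630, minus strand) had the nearest such cluster, at 221.7 kb from its start, followed by ERV3-1 (chr7:64990356-65006743, minus strand) at 236.4 kb. ERVV-1 (chr19:53013921-53016123, plus strand) and ERVV-2 (chr19:53044740-53051680, plus strand) lay 315.5 and 346.4 kb away. Counting single exact sites too, a search added after the values had been seen, a site came as near as 69.1 kb to ERVV-1 and 99.9 kb to ERVV-2. The clusters of the other 4 were farther off: ERVK13-1 (chr16:2660348-2682398, minus strand) at 3072 kb, ERVMER34-1 (chr4:52722618-52751586, minus strand) at 4466 kb, ERVW-1 (chr7:92468380-92477986, minus strand) at 6954 kb and ERVFRD-1 (chr6:11102489-11111725, minus strand) at 7115 kb.

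Allowing 1 mismatch, likewise added later, changed this picture for the ERVV pair. A cluster of 3 sites then appeared on the minus strand between the pair, 14.37 kb from the start of ERVV-1 and 16.27 kb upstream of the start of ERVV-2, in an intron of the pseudogene ZNF702P. The nearest cluster came to 527.2 kb for ERVFRD-1, 751.1 kb for ERVK13-1, 3722 kb for ERVMER34-1 and 5464 kb for ERVW-1. Single exact sites already lay at these rounded distances from those genes. For ERVH48-1 and ERV3-1 the distance did not move by over 1 kb. The guides and the sites they match are shown because they are the array sequences found nearest to a member. Capitals in a site mark the mismatched base and the NGG motif, and positions are counted from 1 at the 5′ end of the guide.
Guide LTR5HS-3: aaaactgccttagggc
Site of LTR5HS-3, with G13T: aaaactgccttaTggcTGG
Guide LTR5HS-8: taaagggtctgtgctg
Site of LTR5HS-8, with C9A: taaagggtAtgtgctgAGG
Guide LTR5HS-4: agcccgacacccgtaa
Site of LTR5HS-4, with G6A: agcccAacacccgtaaAGG
With 2 mismatches, LTR5HS-2 matched the first of these sites as well, and LTR5HS-11 matched a further site 16796 bases upstream of ERVV-2.
A match of letters is a description, and binding of dCas9 there was not analysed here.

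In the control libraries the members spanned a wide range of levels per length, given as CPM per kb of deposited gene length. With dCas9-VPR, ERV3-1 led at 9.16 ± 1.16 CPM per kb (SD, n = 4), followed by ERVH48-1 at 3.95 ± 0.416, ERVK13-1 at 1.98 ± 0.199, ERVMER34-1 at 1.30 ± 0.0932 and ERVV-2 at 0.635 ± 0.0665. ERVFRD-1 was at 0.228 ± 0.0633, ERVW-1 at 0.104 ± 0.0159 and ERVV-1 at 0.102 ± 0.0642. Neighbours in this order did not overlap, except ERVW-1 and ERVV-1. With dCas9-KRAB, ERVH48-1 led at 7.26 ± 0.613 CPM per kb, ahead of ERV3-1 at 4.66 ± 1.01. ERVMER34-1 at 1.12 ± 0.243, ERVV-2 at 0.797 ± 0.0643 and ERVK13-1 at 0.691 ± 0.0996 each overlapped their neighbour in the order. ERVFRD-1 at 0.202 ± 0.0526 overlapped ERVW-1 at 0.119 ± 0.0368, and ERVV-1 came last at 0.0242 ± 0.0315 CPM per kb. The syncytins were therefore among the lowest members in NCCIT cells under either fusion.

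**Figure D1:**
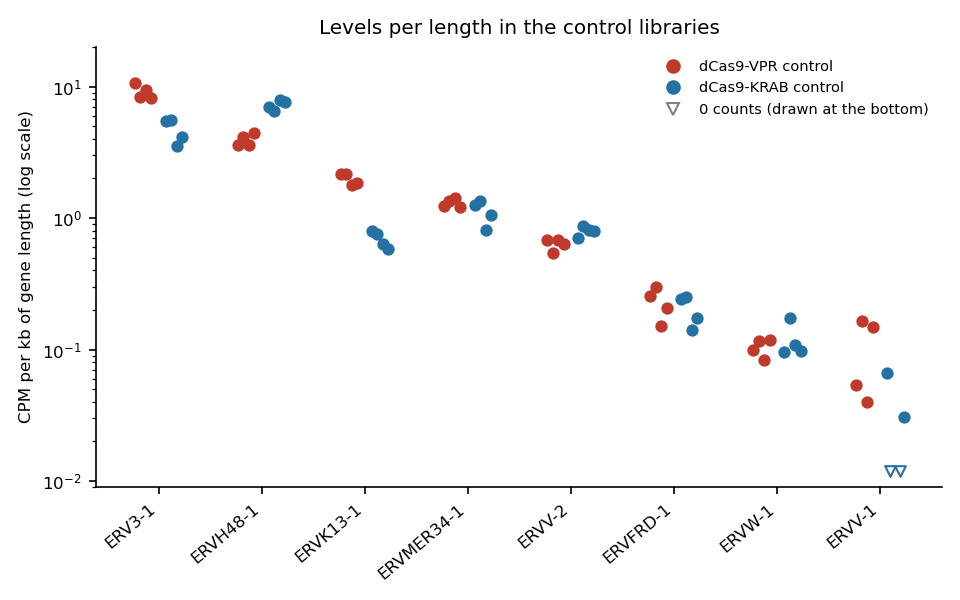
Level of each envelope gene per length (CPM per kb, log scale) in the 4 control libraries of each fusion, 1 point per library; open triangles mark libraries with 0 counts. ERV3-1 and ERVH48-1 exchange the lead between the fusions, and ERVK13-1 is lower in every dCas9-KRAB control library than in any dCas9-VPR control library.

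Between the control libraries of the fusions, 3 of 7 tested members differed in the fit of all 12 libraries, a comparison added after the data had been seen. Over all 16673 tested genes, 55.4% differed, with 28.3% higher and 27.1% lower with dCas9-KRAB. ERVK13-1 was lower with dCas9-KRAB, with a log2 difference of -1.53 (standard error 0.14, edgeR adjusted p = 1.73e-06). ERV3-1 was lower as well (-0.97, standard error 0.16), and ERVH48-1 was higher (0.88, standard error 0.12). These are differences between lines whose arrays do not bring the fusion to LTR5HS.

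ERVV-2, which like ERVV-1 lies beside the guide matches with 1 mismatch, rose with CRISPRa and fell with CRISPRi. With dCas9-VPR it had 71 and 66 counts in the recruitment libraries, 38 and 34 with LTR5HS Sa and 26 and 30 with nontarget Sp. In CPM the recruitment libraries stood at 3.95 and 3.53 and the 4 control libraries between 1.34 and 1.69, so the arms did not overlap. Recruitment lay wholly above control for 25.5% of all tested genes with CRISPRa. For ERVV-2 the log2 fold change was 1.24 (standard error 0.22, edgeR adjusted p = 0.00442), a 2.37-fold rise. Every alternative fit of this change passed the threshold of 0.05, with log2 fold changes between 1.13 and 1.36.

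With dCas9-KRAB, ERVV-2 had 15 and 8 counts in the recruitment libraries, 31 and 26 with LTR5HS Sa and 52 and 131 with nontarget Sp, the last in the deepest library. Scaled to library size, recruitment stood at 0.840 and 0.542 CPM and control between 1.76 and 2.15 CPM, again without overlap. With CRISPRi the arms did not overlap, in either direction, for 23.3% of all tested genes. ERVV-2 fell by 1.49 on the log2 scale (standard error 0.31, edgeR adjusted p = 0.0335), or 2.82-fold. The direction held in all 15 alternatives, but the call did not: leaving out any 1 of the 6 libraries gave an adjusted p between 0.0524 and 0.273. Without the deepest library the log2 fold change was -1.49 with an adjusted p of 0.0943, and with LTR5HS Sa alone as control it was -1.42 with an adjusted p of 0.129. In the fit of all 12 libraries together, the adjusted p was 0.00594.

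The CRISPRa and CRISPRi changes of ERVV-2 differed by 2.74 on the log2 scale (standard error 0.35, edgeR adjusted p = 9.39e-05 for the interaction), a call that passed in all 20 alternatives. An interaction passed for 2 of 7 tested members, where it did for 21.0% of all tested genes, 11.5% in the direction of ERVV-2 and 9.53% in the other. ERVV-2 was the member that changed with both fusions, and of the 15145 genes tested with both, 1.47% rose with CRISPRa and fell with CRISPRi. With CRISPRa, 2 of 6 tested members changed, 1 up and 1 down, where 28.0% of all tested genes did (15.7% up and 12.3% down). With CRISPRi, 1 of 7 tested members changed, and it fell, where 2.77% of all tested genes did (0.831% up and 1.94% down). The median log2 fold change of the tested members was -0.20 with CRISPRa and -0.27 with CRISPRi, beside -0.02 and 0.00 over all tested genes.

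**Figure D2:**
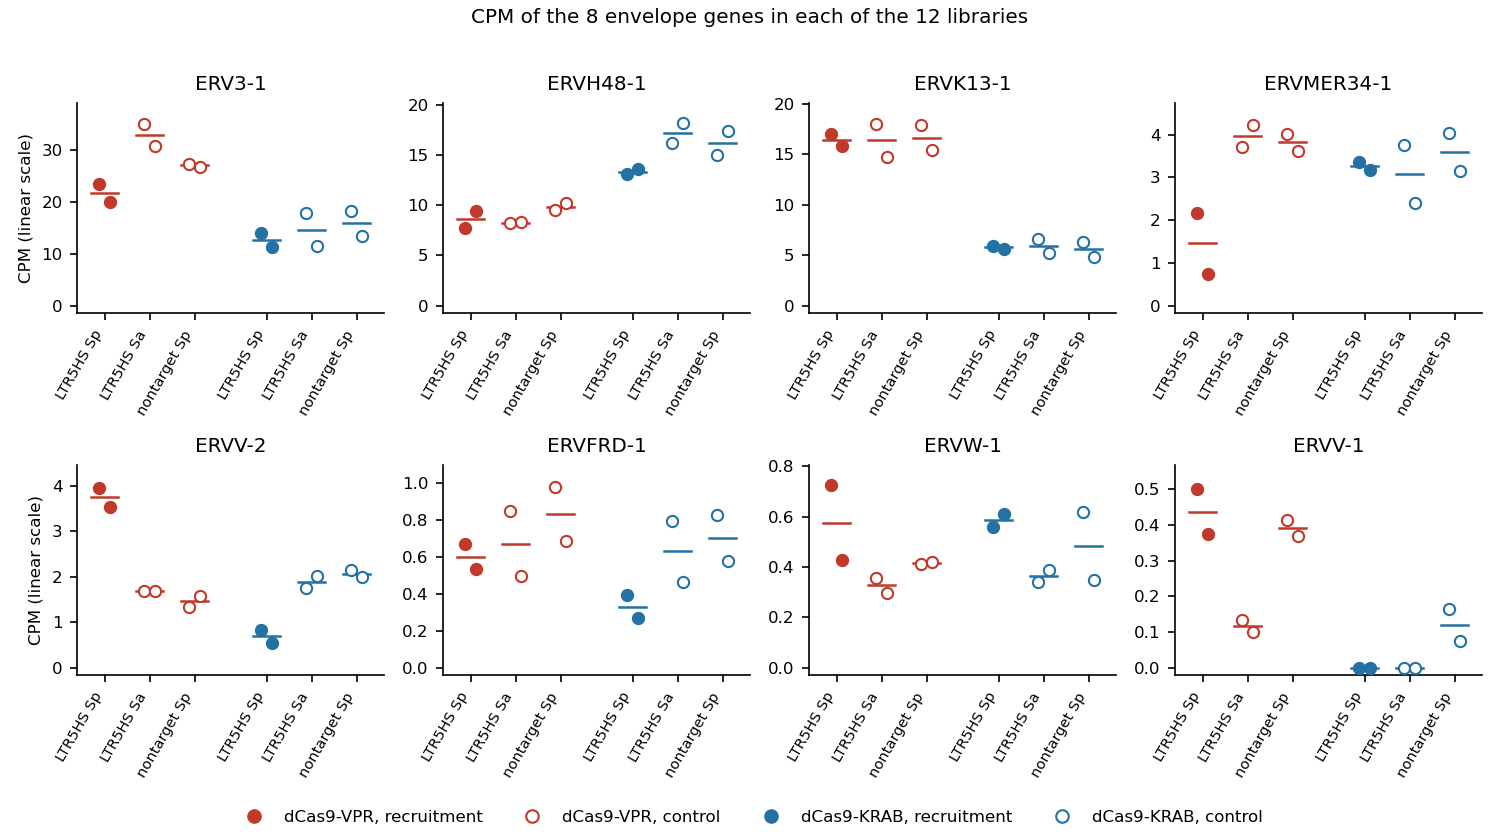
CPM of the 8 envelope genes in every library (linear scale, each panel with its own axis); filled points are recruitment, open points control, and short lines the mean of the 2 replicates of a line. ERVV-2 is high in the dCas9-VPR recruitment libraries and low in the dCas9-KRAB recruitment libraries, and ERVMER34-1 is low in the dCas9-VPR recruitment libraries.

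ERVV-1, its partner on the other side of the matches, was too sparse for the filter on low counts and was not tested with either fusion. It had 9 and 7 counts in the dCas9-VPR recruitment libraries, 3 and 2 with LTR5HS Sa and 8 and 7 with nontarget Sp. The recruitment libraries thus overlapped the nontarget Sp libraries and stood above LTR5HS Sa. With dCas9-KRAB it had 0 counts in both recruitment libraries, which allows up to 0.168 and 0.203 CPM, 0 counts in both LTR5HS Sa libraries and 4 and 5 counts with nontarget Sp. A difference was not detectable at this depth. Without the filter, the fitted change with CRISPRa was 0.79 on the log2 scale (standard error 0.60, edgeR adjusted p = 0.431). ERVV-1 lies within ZNF702P on the opposite strand and shares 0 exonic bases with it. Whether reads of ZNF702P were counted for ERVV-1 was not tested.

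Reads of the pair can be separated only in part. The annotated transcripts of ERVV-1 and ERVV-2 were 95.2% identical over 2025 aligned positions. Of the 150-base windows of ERVV-2, 26.6% occur unchanged in ERVV-1, and of those of ERVV-1, 37.3% occur unchanged in ERVV-2. These shares treat each read alone, whereas the reads were sequenced in pairs. How the counting treated reads that fit both genes is not given in the sources used here, so the split between them is uncertain. Summed over the pair, the counts were 80 and 73 with dCas9-VPR recruitment, or 4.18 ± 0.390 CPM (SD, n = 2), against 1.83 ± 0.0831 CPM (n = 4) in control. With dCas9-KRAB the sums were 15 and 8 counts, or 0.691 ± 0.211 CPM (n = 2), against 2.04 ± 0.225 CPM (n = 4). The summed values had the same order of arms as ERVV-2 alone, and no test was run on the sum.

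The genes around the pair were zinc finger genes of the chromosome 19 cluster, and ZNF702P and ZNF816 rose with CRISPRa and fell with CRISPRi, as ERVV-2 did. ZNF702P, the pseudogene that holds the matches and starts 9.43 kb from them, was at 34.7 to 35.4 CPM with dCas9-VPR recruitment and 11.2 to 20.8 CPM in control. It rose 2.30-fold with CRISPRa (edgeR adjusted p = 0.00626), and with CRISPRi the log2 fold change was -1.10 (edgeR adjusted p = 0.0187). ZNF816, 65.4 kb away beyond ERVV-1, rose by 0.77 on the log2 scale with CRISPRa (edgeR adjusted p = 0.0400) and had a log2 fold change of -1.12 with CRISPRi (edgeR adjusted p = 0.0211). The single exact site counted above, at chr19:52944775-52944793, is nearer to the start of ZNF816 (chr19:52962911) than these matches are. Which sites bear on ZNF816 was not tested. ZNF160, 75.0 kb from the matches beyond ERVV-2, did not pass the threshold, with log2 fold changes of 0.46 (edgeR adjusted p = 0.0585) and -0.20 (edgeR adjusted p = 0.661).

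**Figure D3:**
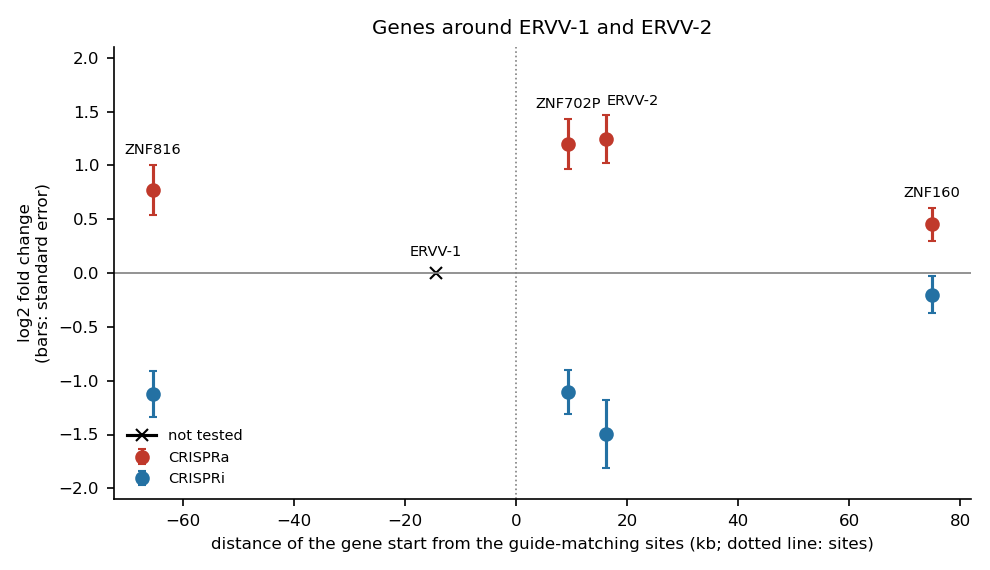
Log2 fold change with CRISPRa and CRISPRi (bars: standard error) of the genes around ERVV-1 and ERVV-2, by the signed distance of each gene's start from the guide-matching sites in kb; a cross marks ERVV-1, which was not tested. ZNF816, ZNF702P and ERVV-2 lie above 0 with CRISPRa and below 0 with CRISPRi, and both points of ZNF160 missed the threshold. The sites are the cluster with 1 mismatch, and a single exact site nearer to ZNF816 is not drawn.

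ERVV-2 was compared with other genes at such distances, as a description. Of 14681 genes tested with both fusions that could be placed, 340 (2.32%) started as close as ERVV-2 or closer to a cluster of at least 2 sites with up to 1 mismatch. Among these 340, 102 (30.0%) rose with CRISPRa and fell with CRISPRi, compared with 115 (0.802%) of the 14341 farther genes. The median log2 fold changes of the closer genes were 0.88 with CRISPRa and -0.59 with CRISPRi. The distance limit was set by ERVV-2 itself, which is among the 340, and no test was run. The clusters include those with exact matches, whereas each of the 3 sites near ERVV-2 has 1 mismatch. The 30.0% is therefore not the share of genes near mismatched sites alone.

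ERVMER34-1 was the other member to change, and it fell with CRISPRa. The recruitment libraries with dCas9-VPR had 39 and 14 counts, compared with 83 and 85 with LTR5HS Sa and 78 and 69 with nontarget Sp. In CPM, recruitment stood at 2.17 and 0.748 and control between 3.63 and 4.22. The arms did not overlap, as was so for 49.9% of all tested genes with CRISPRa, and recruitment lay wholly below control for 24.4% of all tested genes. ERVMER34-1 fell by 1.42 on the log2 scale (standard error 0.38, edgeR adjusted p = 0.0251). The recruitment replicates differed from each other by more than the controls did: without replicate 2 the log2 fold change was -0.85 with an adjusted p of 0.122, and without replicate 1 it was -2.36 with an adjusted p of 0.00558.

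With CRISPRi, ERVMER34-1 had a log2 fold change of -0.03 (95% interval -0.60 to 0.53). Recruitment was at 3.36 and 3.18 CPM, inside the range of the 4 control libraries, 2.41 to 4.05 CPM. The difference between its CRISPRa and CRISPRi changes, -1.38 on the log2 scale, had an edgeR adjusted p of 0.0496 and was past the threshold in 7 of 21 alternatives. ERVMER34-1 overlaps genes on the opposite strand and shares 127 exonic bases with DANCR and 221 with LINC01618, both non-coding RNAs. DANCR was lower with CRISPRa too, at 28.6 to 32.6 CPM with recruitment against 56.7 to 64.9 CPM in control (log2 fold change -0.99, edgeR adjusted p = 0.000479). The strand setting of the counting is not given in the sources used here, and whether reads of DANCR were counted for ERVMER34-1 was not tested.

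The remaining members did not pass the threshold with either fusion. ERV3-1, an envelope gene that shares 825 exonic bases with the same-strand zinc finger gene ZNF117, was lower in both dCas9-VPR recruitment libraries, at 21.7 ± 2.40 CPM (SD, n = 2), than in any control library, at 26.7 to 34.9 CPM. Recruitment lay wholly below control for 24.4% of all tested genes with CRISPRa. For ERV3-1 the log2 fold change was -0.46 (standard error 0.16, edgeR adjusted p = 0.0615), and 4 of 16 alternatives put it past the threshold. These were DESeq2's Wald test (adjusted p = 0.0402), the control arrays as separate groups (0.0220), LTR5HS Sa alone as control (0.0103) and the fit without replicate 1 of nontarget Sp (0.0474). ZNF117 had a log2 fold change of -0.54 in the same comparison (edgeR adjusted p = 0.0833). With CRISPRi, ERV3-1 stood at 13.9 and 11.2 CPM against 11.5 to 18.2 CPM in control, and its log2 fold change was -0.27 (95% interval -0.76 to 0.21).

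ERVH48-1, which encodes suppressyn, was at 7.74 and 9.46 CPM with dCas9-VPR recruitment and 8.25 to 10.2 CPM in control, for a log2 fold change of -0.07 (95% interval -0.48 to 0.34). With dCas9-KRAB both recruitment libraries, at 13.1 and 13.6 CPM, were below all control libraries, at 14.9 to 18.2 CPM. Arms that do not overlap with CRISPRi were found for 23.3% of all tested genes, and the log2 fold change of -0.32 did not pass the threshold (edgeR adjusted p = 0.396). ERVK13-1 had nearly equal means in the arms of each fusion. It was at 16.4 ± 0.859 CPM (SD, n = 2) with recruitment and 16.5 ± 1.66 CPM (n = 4) in control for dCas9-VPR, and at 5.78 ± 0.225 and 5.76 ± 0.830 CPM for dCas9-KRAB. The log2 fold changes were -0.01 (95% interval -0.34 to 0.33) and 0.01 (95% interval -0.44 to 0.46).

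The syncytin genes had few reads. ERVFRD-1 (syncytin-2) had 12 and 10 counts with dCas9-VPR recruitment and 10 to 19 in control, and its log2 fold change was -0.32 (95% interval -1.21 to 0.57). With dCas9-KRAB it had 7 and 4 counts, or 0.392 and 0.271 CPM, below all control libraries (0.666 ± 0.174 CPM, SD, n = 4). With CRISPRi, 23.3% of all tested genes had arms without overlap in either direction. The log2 fold change of ERVFRD-1 with CRISPRi, -0.98 (standard error 0.46), did not pass the threshold (edgeR adjusted p = 0.392). ERVW-1 (syncytin-1) had 13 and 8 counts with dCas9-VPR recruitment, 8 and 6 with LTR5HS Sa and 8 in each nontarget Sp library, and was left out by the filter. Without the filter the fitted change with CRISPRa was 0.61 on the log2 scale (standard error 0.43, edgeR adjusted p = 0.381). With CRISPRi, ERVW-1 had 10 and 9 counts against 5 to 23, for a log2 fold change of 0.47 (95% interval -0.50 to 1.44).

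**Figure D4:**
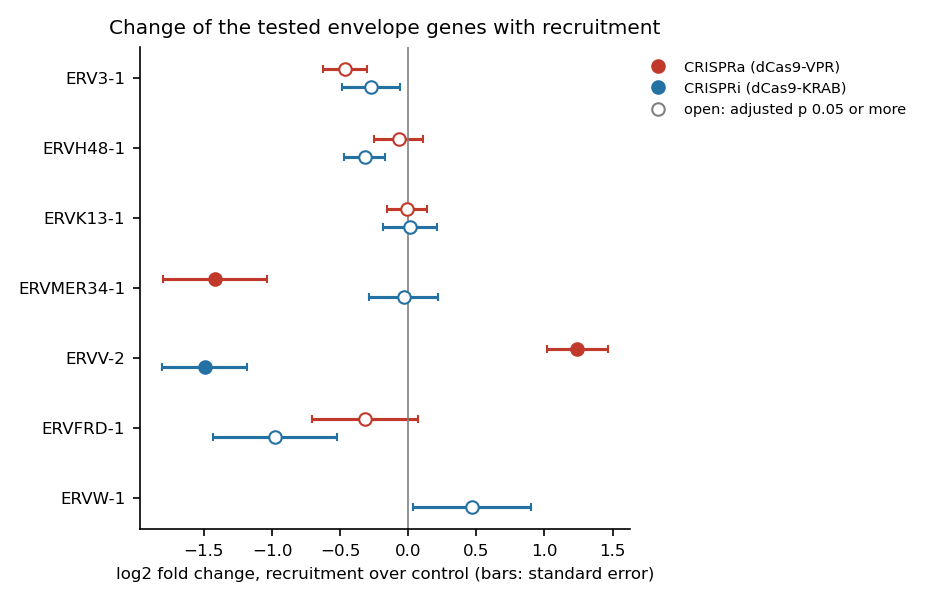
Log2 fold change of recruitment over control with its standard error for the 7 members tested in at least 1 fusion; filled points have an adjusted p under 0.05. ERVV-2 is filled on opposite sides of 0, ERVMER34-1 is filled for CRISPRa, and the other points are open; ERVW-1 was not tested with CRISPRa.

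The proteins that envelope proteins bind or depend on were described as lists, with no test of a list. Of the receptors, SLC1A5 and SLC1A4 (amino acid transporters bound by syncytin-1), MFSD2A (the lipid transporter bound by syncytin-2) and the phospholipase receptor PLA2R1 were all tested. With CRISPRa, 3 of these 4 fell and none rose, while 12.3% of all tested genes fell. MFSD2A was at 0.685 ± 0.213 CPM (SD, n = 2) with recruitment and 2.67 ± 0.465 CPM (n = 4) in control, with a log2 fold change of -1.96 (edgeR adjusted p = 0.00318). SLC1A5, the most abundant at 408 ± 12.8 CPM (SD, n = 2) with recruitment, had a log2 fold change of -0.01 (95% interval -0.33 to 0.32). With CRISPRi, 0 of 4 passed in edgeR, 0 had an unadjusted p under 0.05, and 0 passed in DESeq2.

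Of 12 trophoblast transcription factors, 10 were tested with CRISPRa, and 4 rose and 1 fell, where 15.7% of all tested genes rose and 12.3% fell. CDX2, a trophectoderm and intestinal factor, rose from 0.860 ± 0.535 CPM (SD, n = 4) to 11.4 ± 0.944 CPM (n = 2), and GATA2, GATA3 and TP63 rose by 1.76, 1.48 and 2.36 on the log2 scale. TEAD4 fell, with a log2 fold change of -0.79. With CRISPRi, 2 of 9 tested rose, GATA3 (1.47) and TFAP2A (1.07), and none fell, where 0.831% of all tested genes rose. GCM1, an activator of both syncytin genes, had at most 2 counts in any library. Of the 11 syncytiotrophoblast markers in the table, 2 were tested in edgeR with CRISPRa and both rose, SDC1 and CYP19A1. In DESeq2, which was run without that filter, 2 of the 11 rose and 1 fell. HSD3B1, left out by the filter, had 0 counts in both dCas9-VPR recruitment libraries and 1 to 11 in control. CYP19A1, the aromatase gene, had 17 and 29 counts with recruitment and 2 to 10 in control (log2 fold change 2.12, edgeR adjusted p = 0.0182). Some defining hormone and pregnancy protein genes were at or near 0: CGA had at most 1 count in a library, and INSL4 and LGALS13 had 0 in all 12.
The 11 markers summed to 57.9 to 70.2 CPM with dCas9-VPR recruitment against 6.78 to 15.2 CPM in control. Most of that was SDC1, a proteoglycan also found on other epithelia, which was at 55.6 to 68.9 CPM with recruitment. Of the 5 fibroblast markers, 1 of 3 tested rose with CRISPRa, COL1A1, at 2897 to 3006 CPM with recruitment and 60.2 to 90.1 CPM in control. The others did not pass the threshold or were not tested. COL3A1 had a log2 fold change of 0.95 (edgeR adjusted p = 0.262) and LUM of -1.59 (edgeR adjusted p = 0.101). COL1A2 and DCN had at most 5 counts in any dCas9-VPR library. With CRISPRi, LUM rose 11.05-fold (edgeR adjusted p = 0.00237), the 1 of 4 tested fibroblast markers to pass.
With CRISPRa, 1 of 4 tested endoderm and 1 of 3 tested mesoderm markers rose, and 1 of 2 tested neural markers fell. Of the 12 embryonal carcinoma markers, 4 fell with CRISPRa, namely SOX2 (log2 fold change -1.24), DNMT3B (-0.62), UTF1 (-1.39) and PRDM14 (-0.91), and L1TD1 rose (1.62). The shares over all tested genes were 15.7% up and 12.3% down. Their summed level with dCas9-VPR recruitment, 1295 to 1349 CPM, lay inside the range of the control libraries. In bulk RNA, a change in the number of cells of a type and a change in RNA per cell cannot be told apart, and the part of these markers in the changes of ERVMER34-1 and MFSD2A was not tested.

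The envelope processing and restriction list held 8 tested genes, of which 1 rose and 2 fell with CRISPRa, where 28.0% of all tested genes changed (15.7% up and 12.3% down). IFITM1 and IFITM3, membrane proteins that hinder fusion of viruses with cells, had log2 fold changes of -1.90 and -1.43. The gene of the DNA sensor cGAS, listed under its older symbol MB21D1, was 2.22-fold higher with CRISPRa (edgeR adjusted p = 0.00368) and lower with CRISPRi (log2 fold change -0.83, edgeR adjusted p = 0.0449). FURIN and PCSK7, proteases of the secretory pathway, and TRIM28 and SETDB1, which silence retroviral sequences, did not pass the threshold with either fusion. TRIM28 had log2 fold changes of -0.14 (95% interval -0.67 to 0.38) and 0.10 (95% interval -0.29 to 0.49).

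Of 19 genomic neighbours, 15 were tested with CRISPRa, and 3 rose and 1 fell, a share near the 28.0% of all tested genes that changed. Besides ZNF702P, ZNF816 and DANCR, these included NEDD9, a scaffold protein of cell adhesion 71573 bases from ERVFRD-1, with a log2 fold change of 1.71. With CRISPRi, 2 of 16 tested neighbours fell, ZNF702P and ZNF816, and none rose, where 1.94% of all tested genes fell. The neighbours of ERVK13-1 (PDPK1 and KCTD5) and ERVH48-1 (NDUFV3) did not pass the threshold with either fusion. Neighbours that passed in opposite directions with the fusions were thus those of the ERVV pair.

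As a further description, the genes whose log2 CPM was most alike to that of a member over the 12 libraries were listed, among 14535 genes with a mean of at least 1 CPM. The 12 points come from 6 lines and share those lines and their depth. For ERVV-2 they were HLA-DQB1 (Pearson's r = 0.98), SERPINB9 (0.98) and MMP24 (0.98). SERPINB9 is 1 of the genes of the recruitment check. For ERVMER34-1 they were DRAM1 (0.95), UXS1 (0.92) and UBE2G2 (0.92). ERVK13-1 was most like ELN (0.99), SDC4 (0.99) and RSPH3 (0.99), ERVH48-1 like RASGEF1A (0.99), NELL2 (0.98) and PPM1J (0.98), and ERV3-1 like SLC12A2 (0.97), LRRC15 (0.97) and ANTXR1 (0.97). HLA-DQB1 belongs to a family of close copies, and its counts are uncertain for that reason.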

How the data were processed

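For 12 libraries the authors deposited unnormalized read counts, 1 row per gene. Per the submitters' processing notes and the methods, reads were handled with CASAVA 1.8, trimmed with cutadapt 1.8.1, aligned to hg38 with HISAT2 2.1.0 and assigned to genes with featureCounts 1.4.6-p2. The strand setting, the treatment of reads that fit several places and the gene annotation are not given in the sources used here. The deposited table also gives each gene's length in bp, used only for CPM per kb.

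The test was edgeR 4.0.16 under R 4.3.3 (filterByExpr, TMM, quasi-likelihood F-test, Benjamini-Hochberg over all tested genes, threshold 0.05), recruitment against pooled control within each fusion, and with an interaction in all 12 libraries. Intervals are 95% intervals from the quasi-likelihood standard error. Genes were placed with GENCODE v44 on hg38 (24517 of 26641 genes, 92.0%), and guide matches within 1500 bp of each other were merged. Guide sequences came from the study's supplement, and those shown were matched to hg38. Python 3.11.15, pandas 2.3.3, SciPy 1.17.1 and Biopython 1.88 were used. DESeq2 was version 1.42.0.

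All members and lists were chosen with earlier results of these data known. All 8 members are named. For members with a mean of at least 1 CPM, the 3 genes with the highest correlation of log2(CPM + 0.5) are named, leaving out names that read as dates. Exact guide matches were the planned search. Alternatives were DESeq2's size factors and Wald test, other filters, a replicate block, separate or single control arrays, a threshold of 0.01, 1 fit of all libraries and leaving out each library. The sequence around the guide matches and 1 neighbouring gene are not reported here.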

Additional observations from a re-analysis of the deposited data

Results flagged for a closer look

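The change of ERVV-2 with recruitment differed between the fusions: the CRISPRa minus CRISPRi log2 fold change was 2.74 (adjusted p = 9.39e-05, interaction in edgeR's quasi-likelihood test), and every recruitment library lay above control with dCas9-VPR and below control with dCas9-KRAB. For ERVMER34-1 the same difference was -1.38 (adjusted p = 0.0496), with both dCas9-VPR recruitment libraries below control and no shift with dCas9-KRAB. Over all tested genes, arms without overlap in either direction were found for 49.9% with CRISPRa and 23.3% with CRISPRi.

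Among 16 sets of 4 control libraries checked for a library far from the others, 1 stood out: ERVW-1 was at 0.619 CPM in replicate 1 of dCas9-KRAB nontarget Sp, which rests on 15 counts. Chance alone marks about 1 in 20 such sets.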

How the results depend on the processing

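With CRISPRa, 2 members passed the threshold. This became 1 at a threshold of 0.01 and ranged from 1 to 3 when each library was left out in turn. With CRISPRi, 1 member passed. This became 0 with at least 10 counts in every library (which removed ERVV-2), with LTR5HS Sa alone as control and at 0.01, and was 0 whichever library was left out, so the range was 0 to 0. The interaction count of 2 became 1 without a filter, with at least 10 counts, with LTR5HS Sa or nontarget Sp alone as control and at 0.01, and ranged from 1 to 2 when each library was left out. Leaving out a recruitment library leaves 1, which is assumed to vary like the others. What a replicate number marks is not stated in the labels, and whether the numbers share a day or batch was not tested. Differences between replicates 1 and 2 correlated between arrays across genes, which are not independent (Pearson's r 0.289 to 0.400 for dCas9-VPR and 0.195 to 0.467 for dCas9-KRAB). The replicate block changed no member's call (2, 1 and 2 members, with ERVV-2 under CRISPRi at -1.50 and an adjusted p of 0.0357). Reversals were in values that had not passed: ERVK13-1 with CRISPRa at 0.00281 and its interaction at 0.00728 (at least 10 counts); with LTR5HS Sa alone, ERVH48-1 with CRISPRa at 0.0490, ERVMER34-1 with CRISPRi at 0.0747, ERVK13-1 with CRISPRi at -0.0420 and its interaction at 0.0487; and the interaction of ERV3-1 at 0.00917 with nontarget Sp alone. When each library was left out, ERVK13-1 ranged from -0.0557 to 0.0401 (CRISPRa), -0.0713 to 0.0836 (CRISPRi) and -0.0896 to 0.0654 (interaction), ERVH48-1 from -0.23 to 0.0740 (CRISPRa), ERVMER34-1 from -0.15 to 0.0641 (CRISPRi) and the interaction of ERVW-1 from -0.26 to 0.49. Over all genes, the CRISPRa count of 4548 became 2517 at 0.01 and 2312 or 2299 without replicate 1 or 2 of LTR5HS Sp. The CRISPRi count of 430 became 696 with DESeq2, 236 at 0.01, 234 or 214 without replicate 1 or 2 of LTR5HS Sp and 285 without nontarget Sp replicate 2. The interaction count of 3505 became 1944 at 0.01. The causes were not tested. Depth limits ERVV-1, ERVW-1 and ERVFRD-1, which had few counts in most libraries.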
